A study of Mus musculus with 13 samples.

Results

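Reactive astrocyte genes are transcripts that astrocytes are known to raise after injury to the nervous system. The set described here has 31 genes, chosen by symbol from the gene count table, which holds 55416 Ensembl gene identifiers. It was divided by known function into 4 intermediate filament genes, 20 injury and acute-phase genes and 7 scar and calcium-binding genes, and 30 of the 31 genes passed the filter on low counts. Slc10a6, the exception, had 2 to 6 reads in all per group.

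The libraries are bulk messenger RNA of mouse brain in 4 groups, and every group carries loxP-flanked Pdcd10 (Pdcd10fl/fl), the gene also called Ccm3, whose loss causes cerebral cavernous malformations. The flox groups, in normoxia (n = 3) and in hypoxia (n = 3), are littermates labelled with that genotype alone. The series' design text adds that Cre carriers that were not injected also served as littermate controls, and no label says which library is such an animal. The knockout (KO) groups, in normoxia (n = 3) and in hypoxia (n = 4), are Slco1c1-iCreERT2; Pdcd10fl/fl mice, in which the Slco1c1 promoter drives an inducible Cre recombinase in brain endothelium. KO mice received 50 µg of 4-hydroxytamoxifen into the stomach on postnatal day 1, and the text leaves unclear whether flox littermates were injected as well. Hypoxia meant 12% oxygen for 7 days and normoxia 21% oxygen. All libraries are labelled male, and the age at collection is not given in the sources used here. Because the deletion is aimed at endothelial cells and not at astrocytes, Pdcd10 in whole tissue is no check of the genotype.

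An astrocyte that reacts to injury enlarges its cytoskeleton of glial fibrillary acidic protein, vimentin, nestin and synemin, and secretes protease inhibitors and acute-phase proteins. Cytokines of the interleukin-6 family signal through the receptor subunit Il6st and the transcription factor Stat3 in these cells, and at the border of a lesion they build a scar with surface glycoproteins, annexins, S100 proteins and galectins. Many of these genes are not particular to astrocytes: Vim, Anxa2, Lgals1, S100a6 and Tm4sf1 are also known from vessel wall cells, and Srgn, Capg and Cd44 from leukocytes and macrophages. In whole tissue, more cells of a type and more RNA per cell cannot be told apart.

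Libraries held 42090437 to 71216636 counts. KO hypoxia replicate 1 stands apart: pairs of libraries within a group that include it differed by a chi-square of 42.3 to 48.0 per degree of freedom, against at most 16.9 for all other such pairs. Its summed level of 5 erythroid genes was 17392 CPM (counts scaled to library size), against 3408 to 4164 in the other 3 KO hypoxia libraries, 973 to 1700 in KO normoxia, 448 to 670 in flox hypoxia and 139 to 261 in flox normoxia. The sum of 8 neutrophil and monocyte markers was 14.9 CPM in replicate 1 and 2.51 to 3.76 CPM in the other 3 libraries of its group. Xist was above 1 CPM in 4 libraries, flox normoxia 3, KO normoxia 3 and KO hypoxia 3 and 4, although each is labelled male. KO normoxia replicate 2 stands apart in another way: its 5 choroid plexus markers summed to 8.78 CPM, against 305 to 515 CPM in each of the other 12 libraries, and the part of this in the results was not tested. Members that were called, and the counts of calls, are given below with and without KO hypoxia replicate 1.

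The start regions of 3 members are shown because they hold matches to motifs of factors that act in reactive glia, and the transcripts passed the test for KO against flox in both oxygen conditions (below). The sequences run 5′ to 3′ from 150 bases before the RefSeq transcript start through the first 20 bases of the transcript. They are RefSeq sequences of build GRCm38.p6, a build other than that of the counts. Capitals mark TTCNNNGAA, the palindrome bound by STAT factors, and TGANTCA, the AP-1 motif of Fos and Jun. They are Gfap on chromosome 11 (chr11:102897181-102897350, minus strand), Emp1 on chromosome 6 (chr6:135362781-135362950, plus strand, the first of its 2 start regions) and Anxa2 on chromosome 9 (chr9:69453533-69453702, plus strand).
Gfap: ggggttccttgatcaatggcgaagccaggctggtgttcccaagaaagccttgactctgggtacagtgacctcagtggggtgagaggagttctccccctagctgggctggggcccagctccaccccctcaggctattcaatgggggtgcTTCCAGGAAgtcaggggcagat
Emp1: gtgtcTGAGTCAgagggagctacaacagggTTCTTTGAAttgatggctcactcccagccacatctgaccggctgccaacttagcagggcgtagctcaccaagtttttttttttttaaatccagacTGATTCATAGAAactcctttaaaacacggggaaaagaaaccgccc
Anxa2: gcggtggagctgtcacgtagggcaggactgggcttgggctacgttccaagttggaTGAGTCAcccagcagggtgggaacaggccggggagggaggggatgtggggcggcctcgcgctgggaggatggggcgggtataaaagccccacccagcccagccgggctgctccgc
The Gfap match to the STAT palindrome begins 2 bases before the start and runs over it. In Emp1 each motif occurs 2 times, and the AP-1 match that begins 25 bases before the start shares letters with the STAT match that begins 22 bases before it. The Anxa2 window holds 1 AP-1 match, 95 bases before the start. Over windows of 300 bases (250 before the start and 50 after it), searched on both strands, 5 of the 27 members with an entry held a STAT match (18.5%), against 9.55% of 27025 genes. For AP-1 it was 4 of 27 (14.8%), against 8.97%. The other members with a STAT match were Steap4, Tgm1 and Sphk1, and the other members with an AP-1 match were Cp and Sphk1. These matches are descriptions of the letters and show no binding.

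The first question is which of these transcripts differed between KO and flox brains in each oxygen condition. In normoxia 11 genes rose and 0 fell by edgeR's quasi-likelihood test with Benjamini-Hochberg adjustment over 22507 genes at a threshold of 0.05. In that comparison 1.96% of all genes tested were called higher and 0.369% lower. In hypoxia 22 genes rose and 0 fell, where 6.78% of all genes were called higher and 2.28% lower. The 11 genes called in normoxia were all among the 22. The median log2 fold change of the 30 tested members was 0.55 in normoxia and 1.15 in hypoxia, against -0.00357 and -0.00919 over all genes tested.

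Without KO hypoxia replicate 1, 21 genes were called higher in hypoxia (5.2% of all genes) with a median of 0.92, and 13 in normoxia (2.69% of all genes). Without KO normoxia replicate 2 the normoxia count was 8 (1.2% of all genes), and Hspb1, Ggta1 and Cd109 lost their calls. On leaving out KO hypoxia replicate 1, the normoxia count moves because 1 estimate of spread is shared by all groups. Steap4 was the only gene that lost its call in hypoxia, and A2m and Cp were the 2 that gained one in normoxia. By subclass, with all libraries, 3 of 4 filament genes rose in each oxygen condition. Of the injury and acute-phase genes 5 rose in normoxia and 12 in hypoxia, of 19 tested, and of the 7 scar and calcium-binding genes 3 and 7 rose. Without replicate 1 the hypoxia counts were 3, 11 and 7.

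**Figure D1:**
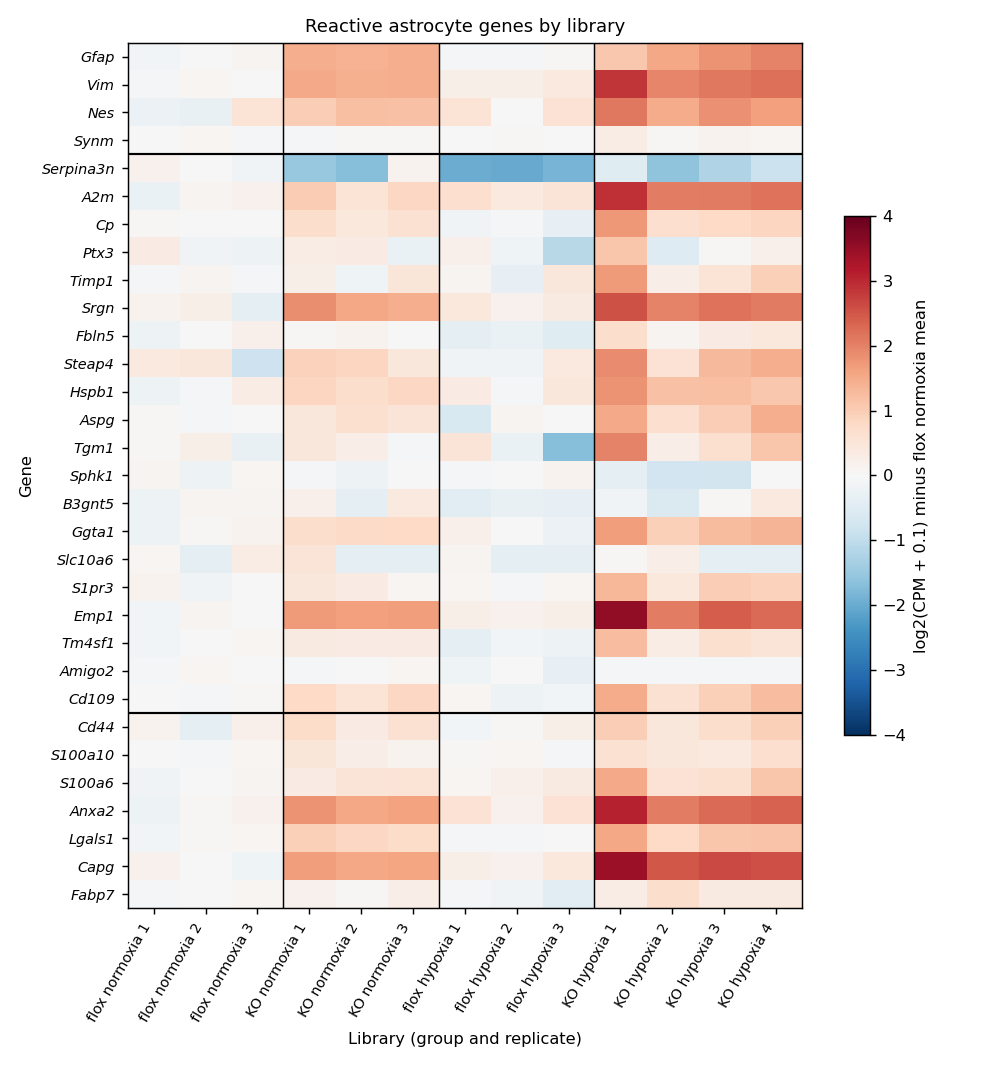
Level of each of the 31 genes (rows) in each of the 13 libraries (columns), as log2(CPM + 0.1) minus the mean of the 3 flox normoxia libraries. Horizontal lines separate filaments, injury and acute-phase genes, and scar and calcium-binding genes; Synm and Amigo2 stay pale across groups, Serpina3n is blue in flox hypoxia, and KO hypoxia replicate 1 is the highest of its group for 24 of the 30 tested genes.

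Among the intermediate filaments, Gfap, Vim and Nes rose in KO brains in both oxygen conditions, and Synm did not pass the test in either. Gfap (ENSMUSG00000020932) encodes glial fibrillary acidic protein, the defining filament of astrocytes. It was at 403, 447 and 471 CPM in flox normoxia replicates 1 to 3 and at 1201, 1150 and 1214 in KO normoxia. In flox hypoxia it was at 423, 416 and 449 CPM, and in KO hypoxia replicates 1 to 4 at 918, 1272, 1543 and 1732. Every KO library lay above every flox library, and replicate 1 was the lowest of the KO hypoxia group. The KO effect on the log2 scale was 1.43 ± 0.15 (SE) in normoxia (edgeR adjusted p = 0.000132) and 1.67 ± 0.15 in hypoxia (adjusted p = 8.43e-06), and without replicate 1 the latter was 1.82 ± 0.09.

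Vim encodes vimentin, a filament of astrocytes that is shared with endothelium and other mesenchymal cells. It was at 27.8, 30.6 and 28.7 CPM in flox normoxia and 83.3, 78 and 80.4 in KO normoxia. Flox hypoxia libraries held 34.1, 34.4 and 37.9 CPM and KO hypoxia libraries 211, 112, 126 and 134. Here replicate 1 was the highest of its group, the reverse of its place for Gfap. KO exceeded flox by a log2 fold change of 1.47 ± 0.16 in normoxia (edgeR adjusted p = 0.000172) and 2.04 ± 0.16 in hypoxia (adjusted p = 5.16e-06), the latter at 1.81 ± 0.07 without replicate 1.

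On a scale per gene length, the RPKM (reads scaled to gene length and library size) of Gfap was 12.8 to 18.4 times that of Vim in the other 12 libraries and 4.89 times in KO hypoxia replicate 1. In its group the other 3 libraries gave ratios of 12.8, 13.7 and 14.5. Gfap was the most abundant member per length, with a mean of 104 RPKM in flox normoxia and 329 in KO hypoxia. Its rank among the genes tested went from 297 to 72.

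Nes encodes nestin, a filament of neural progenitors that reappears in reactive astrocytes and is also found in new vessels. It was at 10.1, 9.58 and 17.4 CPM in flox normoxia, 23.8, 27.3 and 27.2 in KO normoxia, 17.3, 11.8 and 17.9 in flox hypoxia, and 51.7, 33.8, 42.7 and 37.5 in KO hypoxia. KO and flox did not overlap in either oxygen condition. Its log2 fold change was 1.07 ± 0.21 in normoxia (edgeR adjusted p = 0.0102) and 1.40 ± 0.20 in hypoxia (adjusted p = 0.000275; 1.28 ± 0.19 without replicate 1). The normoxia call was lost without flox normoxia replicate 1 (0.95, adjusted p = 0.0622) or 2 (0.92, adjusted p = 0.0504).

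Synm encodes synemin, a large filament protein that joins vimentin-based filaments. It was at 49.3 to 54.1 CPM in flox normoxia, 49.7 to 53.7 in KO normoxia, 51.3 to 53.0 in flox hypoxia and 52.8 to 63.2 in KO hypoxia, where replicate 1 was the highest. The groups overlapped in both comparisons. The log2 fold change was 0.02 ± 0.06 in normoxia and 0.13 ± 0.06 in hypoxia (edgeR adjusted p = 0.952 and 0.186), and 0.07 ± 0.05 in hypoxia without replicate 1.

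**Figure D2:**
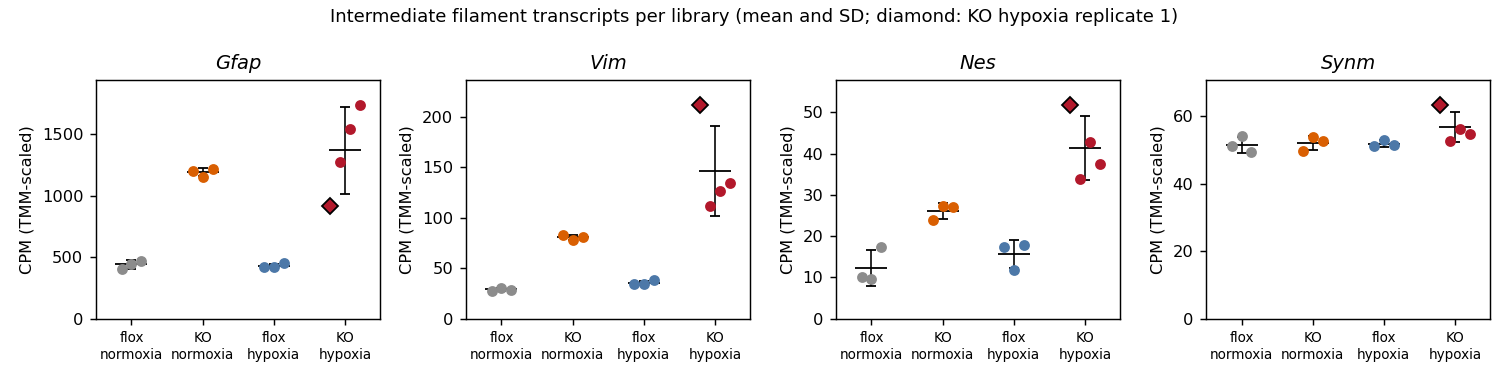
CPM of Gfap, Vim, Nes and Synm in each library (points), with the mean and SD of each group (bars); the diamond is KO hypoxia replicate 1. KO points lie above flox points for Gfap, Vim and Nes, replicate 1 is the lowest of its group for Gfap and the highest for Vim, and the Synm groups overlap.

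Secreted proteins of the injury and acute-phase subclass number 7, of which Srgn rose in normoxia and Srgn, A2m, Cp and Fbln5 rose in hypoxia, with and without replicate 1. Srgn encodes serglycin, the core proteoglycan of secretory granules. It was at 4.42, 4.62 and 3.02 CPM in flox normoxia, 14.7, 11.6 and 10.9 in KO normoxia, 5.38, 4.48 and 5.14 in flox hypoxia, and 23.4, 16, 18.1 and 17.1 in KO hypoxia. All KO libraries lay above all flox libraries. The KO effect on the log2 scale was 1.63 ± 0.17 in normoxia and 1.90 ± 0.16 in hypoxia (edgeR adjusted p = 0.000118 and 6.64e-06), and 1.77 ± 0.14 in hypoxia without replicate 1.

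A2m encodes alpha-2-macroglobulin, a broad protease inhibitor of the acute phase. It was at 3, 3.90 and 4.06 CPM in flox normoxia and 7.5, 5.37 and 6.55 in KO normoxia. Flox hypoxia libraries held 5.85, 4.76 and 5.26 CPM and KO hypoxia libraries 27.8, 15.3, 15.7 and 16.6. The KO hypoxia group lay clear of all other groups, also without replicate 1. In hypoxia the log2 fold change was 1.83 ± 0.20 (edgeR adjusted p = 4.03e-05; 1.58 ± 0.13 without replicate 1). In normoxia it was 0.82 ± 0.21 and was not called (adjusted p = 0.0629), and without KO hypoxia replicate 1 it was 0.82 ± 0.13 and was called (adjusted p = 0.00204). A2m in normoxia was also called by DESeq2 (adjusted p = 0.0368), and by edgeR without a filter on low counts (adjusted p = 8.24e-05) or with the compared libraries alone (adjusted p = 0.0175).

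Cp encodes ceruloplasmin, a copper-carrying ferroxidase that astrocytes present at their surface. It was at 12.6, 12.1 and 12.2 CPM in flox normoxia, 20.1, 16.5 and 18.8 in KO normoxia, 11.2, 12.0 and 9.77 in flox hypoxia, and 40.8, 19.7, 21.2 and 22.2 in KO hypoxia. KO and flox did not overlap in either condition. The log2 fold change in hypoxia was 1.24 ± 0.20 (edgeR adjusted p = 0.00083; 0.94 ± 0.09 without replicate 1). In normoxia it was 0.59 ± 0.21, not called in the edgeR fit to filtered genes with all libraries (adjusted p = 0.196) and called without replicate 1 of KO hypoxia (adjusted p = 0.000839). Cp in normoxia was also called by edgeR without a filter on low counts (adjusted p = 0.00171) and with the compared libraries alone (adjusted p = 0.00354).

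Fbln5, the elastic fibre protein fibulin-5, had a log2 fold change of 0.79 ± 0.14 in hypoxia (edgeR adjusted p = 0.00198; 0.67 ± 0.13 without replicate 1) and of 0.06 ± 0.15 in normoxia. The other 3 secreted proteins were not called in either condition. Timp1, an inhibitor of matrix metalloproteinases, averaged 0.667 CPM in flox normoxia, 0.784 in KO normoxia, 0.734 in flox hypoxia and 1.40 in KO hypoxia. Its replicate 1 held 2.40 CPM, and the log2 fold change in hypoxia was 0.94 ± 0.34 (adjusted p = 0.102), and 0.54 ± 0.28 without replicate 1. It was called without KO hypoxia replicate 2 (1.13, adjusted p = 0.0339) and, with all libraries, when no filter on low counts was applied (adjusted p = 0.0308). Ptx3, a long pentraxin of innate immunity, averaged 0.328, 0.367, 0.253 and 0.432 CPM in flox normoxia, KO normoxia, flox hypoxia and KO hypoxia. Its log2 fold change in hypoxia was 0.74 ± 0.49, and 0.23 ± 0.46 without replicate 1.

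Serpina3n, a serine protease inhibitor and a widely used marker of reactive astrocytes, was the member whose groups differed most with oxygen in flox. It was at 76.7, 67.8 and 62.3 CPM in flox normoxia and at 17.4, 17.1 and 18.7 in flox hypoxia, with no overlap. KO normoxia libraries held 24.2, 20.9 and 75.5 CPM, so that replicate 3 lay within the flox range and the other two below it. KO hypoxia libraries held 49.0, 22.6, 29.7 and 38.1 CPM, all above flox hypoxia. In the edgeR fit to filtered genes no contrast was called with all libraries: the log2 fold change of KO against flox was -0.78 ± 0.36 in normoxia and 0.98 ± 0.35 in hypoxia (edgeR adjusted p = 0.349 and 0.104). Hypoxia against normoxia in flox gave -1.96 ± 0.38 (adjusted p = 0.132), which DESeq2 called lower (adjusted p = 0.0213). Without a filter on low counts, edgeR called all 3 of these contrasts with all libraries (adjusted p = 0.00425, 5.57e-05 and 8.29e-11), and the difference of KO effects as well (1.77 ± 0.26, adjusted p = 0.000132). That fit put the normoxia effect at -0.79 ± 0.18, against an SE of 0.36 with the filter. The libraries are the same in both fits, so the smaller p-values do not show a smaller spread among them. The share of all genes called in the unfiltered fit is not given. With the compared libraries alone edgeR called the effect of KO in hypoxia (adjusted p = 0.0104) and that of hypoxia in flox (adjusted p = 7.03e-07).

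In the filtered fit these calls also depended on KO normoxia replicate 3, 1 of the libraries with Xist. Without it, the edgeR log2 fold change of KO against flox was -1.62 ± 0.23 in normoxia (adjusted p = 0.00188) and 0.98 ± 0.19 in hypoxia (adjusted p = 0.00437). The hypoxia effect in flox was then -1.96 ± 0.20 (adjusted p = 0.00216) and the difference of KO effects between oxygen conditions 2.60 ± 0.29 (adjusted p = 0.00787). Hypoxia against normoxia in KO was -0.20 ± 0.34 with all libraries and 0.64 ± 0.21 without it, and was called in neither. Without KO hypoxia replicate 1, KO against flox in hypoxia was 0.76 ± 0.35 (adjusted p = 0.241).

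**Figure D3:**
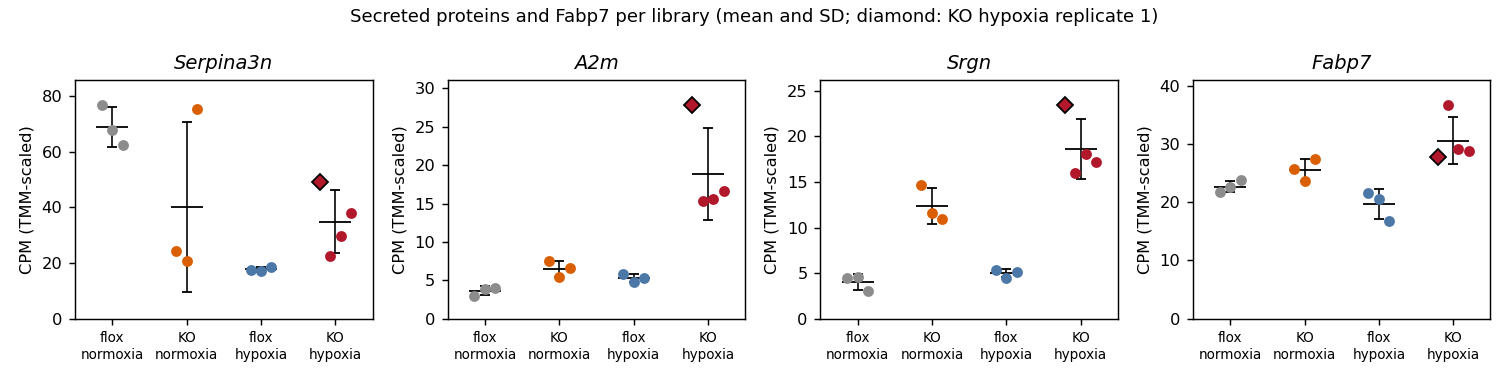
CPM of Serpina3n, A2m, Srgn and Fabp7 in each library (points), with the mean and SD of each group (bars); the diamond is KO hypoxia replicate 1. For Serpina3n, KO normoxia replicate 3 at 75.5 CPM lies apart from the 24.2 and 20.9 of its group; A2m in KO hypoxia lies above every other group.

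Enzymes, a chaperone and a transporter make up the next 8 members, of which 7 were tested. Hspb1 and Ggta1 rose in normoxia, and Aspg, Ggta1, Hspb1 and Steap4 rose in hypoxia. Aspg encodes an asparaginase. It was at 3.20, 2.92 and 3.14 CPM in flox normoxia, 4.23, 4.83 and 4.5 in KO normoxia, 1.99, 3.30 and 3.08 in flox hypoxia, and 8.93, 4.94, 6.2 and 8.65 in KO hypoxia. KO lay above flox in both conditions. KO against flox gave a log2 fold change of 0.55 ± 0.21 in normoxia (edgeR adjusted p = 0.238, not called) and 1.37 ± 0.20 in hypoxia (adjusted p = 0.000448; 1.24 ± 0.20 without replicate 1). With the compared libraries alone edgeR called the normoxia effect of Aspg (adjusted p = 0.0366).

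Ggta1 encodes the galactosyltransferase that makes the alpha-gal sugar. It was at 2.93, 3.44 and 3.74 CPM in flox normoxia, 5.55, 5.74 and 5.84 in KO normoxia, 3.86, 3.39 and 2.82 in flox hypoxia, and 10.9, 6.58, 8.16 and 8.85 in KO hypoxia. The KO effect on the log2 scale was 0.76 ± 0.16 in normoxia (edgeR adjusted p = 0.0212) and 1.36 ± 0.16 in hypoxia (adjusted p = 6.17e-05; 1.22 ± 0.14 without replicate 1). Hspb1, the small heat shock protein that binds unfolded proteins and actin, was at 3.34, 3.65 and 4.71 CPM in flox normoxia, 7.11, 6.33 and 6.93 in KO normoxia, 4.92, 3.71 and 5.35 in flox hypoxia, and 13.5, 8.88, 9.04 and 8.29 in KO hypoxia. No KO library of either gene overlapped flox. The log2 fold change of Hspb1 was 0.79 ± 0.18 in normoxia (adjusted p = 0.0325) and 1.10 ± 0.17 in hypoxia (adjusted p = 0.000805; 0.91 ± 0.14 without replicate 1).

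The normoxia calls of Ggta1 and Hspb1 were each lost on leaving out flox normoxia replicate 1 or 2 or any 1 of the 3 KO normoxia libraries, with edgeR adjusted p from 0.0603 to 0.104 for Ggta1 and 0.0667 to 0.148 for Hspb1. Steap4, a metalloreductase, averaged 0.296 CPM in flox normoxia, 0.520 in KO normoxia, 0.283 in flox hypoxia and 0.855 in KO hypoxia. Its log2 fold change in hypoxia was 1.60 ± 0.43 (adjusted p = 0.0297). That call was lost without KO hypoxia replicate 1 (1.34 ± 0.44, adjusted p = 0.0888) or 4 (1.58, adjusted p = 0.0557) and without flox hypoxia replicate 1 (1.47, adjusted p = 0.119) or 2 (1.49, adjusted p = 0.123).

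Of the others, Tgm1, a transglutaminase that cross-links proteins, averaged 0.227, 0.278, 0.179 and 0.623 CPM in flox normoxia, KO normoxia, flox hypoxia and KO hypoxia. Its log2 fold change in hypoxia was 1.72 ± 0.63 (edgeR adjusted p = 0.109), and its replicate 1 held 1.19 CPM against 0.288 to 0.605 in the other 3. It was called by DESeq2 (1.76, adjusted p = 0.046) and without a filter on low counts (adjusted p = 0.0155), and was at 1.19 ± 0.62 without replicate 1 (adjusted p = 0.306). Sphk1, which makes sphingosine-1-phosphate, was the member with a negative value in both conditions, at -0.12 ± 0.17 in normoxia and -0.49 ± 0.17 in hypoxia (adjusted p = 0.0794). It averaged 3.75, 3.47, 3.81 and 2.72 CPM in the same order of groups, and the hypoxia value was -0.52 ± 0.18 without replicate 1 (adjusted p = 0.108). It was called lower by DESeq2 (-0.49, adjusted p = 0.0413), without a filter on low counts (adjusted p = 0.0474) and without KO hypoxia replicate 4 (-0.66 ± 0.14, adjusted p = 0.0101). B3gnt5, a glycolipid-building glucosaminyltransferase, averaged 1.24, 1.33, 0.937 and 1.21 CPM and was not called. Slc10a6, a transporter of sulphated steroids, had 6 reads in flox normoxia, 4 in KO normoxia, 2 in flox hypoxia and 5 in KO hypoxia, over all libraries of each group. At 0 to 0.0847 CPM per library, against a limit of 0.0421 to 0.0713 CPM that a count of 0 allows, a difference was not detectable at this depth.

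Receptors and membrane proteins included Emp1 and Cd109, which rose in both oxygen conditions, and S1pr3 and Tm4sf1, which rose in hypoxia, with and without replicate 1. Emp1, a tetraspan epithelial membrane protein, was at 1.44, 1.68 and 1.56 CPM in flox normoxia and 5.27, 5.05 and 5.17 in KO normoxia. Flox hypoxia libraries held 1.85, 1.78 and 1.84 CPM and KO hypoxia libraries 19.1, 6.79, 8.80 and 7.89. KO was above flox throughout, and replicate 1 exceeded the other 3 by more than they differed among themselves. The log2 fold change was 1.73 ± 0.31 in normoxia and 2.55 ± 0.29 in hypoxia (edgeR adjusted p = 0.00618 and 6.37e-05), the latter at 2.10 ± 0.12 without replicate 1.

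Cd109, a surface protein that binds transforming growth factor beta, was at 2.60, 2.57 and 2.74 CPM in flox normoxia, 4.70, 3.92 and 4.77 in KO normoxia, 2.80, 2.29 and 2.41 in flox hypoxia, and 7.54, 4.07, 5.25 and 6.27 in KO hypoxia. The KO and flox libraries did not overlap. The KO effect on the log2 scale was 1.21 ± 0.18 in hypoxia (edgeR adjusted p = 0.0004; 1.05 ± 0.15 without replicate 1) and 0.75 ± 0.18 in normoxia (adjusted p = 0.0386). The normoxia call was lost when any 1 of 10 libraries was left out, all but KO hypoxia replicates 1, 2 and 4, with adjusted p from 0.0507 to 0.137.

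Tm4sf1, a tetraspanin-like protein that is abundant in endothelium, was at 7.81, 8.52 and 8.90 CPM in flox normoxia, 10.9, 10.6 and 10.7 in KO normoxia, 6.52, 7.76 and 7.24 in flox hypoxia, and 19.8, 10.4, 13.1 and 12.0 in KO hypoxia. KO lay above flox in both conditions. The hypoxia log2 fold change of 0.95 ± 0.16 passed the test (edgeR adjusted p = 0.0015; 0.73 ± 0.10 without replicate 1), and the normoxia one of 0.35 ± 0.17 did not (adjusted p = 0.396). S1pr3, a receptor for sphingosine-1-phosphate, had 0.92 ± 0.16 in hypoxia (adjusted p = 0.00162; 0.76 ± 0.13 without replicate 1). Amigo2, an adhesion protein that some studies use as a marker of astrocytes exposed to inflammatory cytokines, averaged 11.7, 11.8, 10.4 and 11.2 CPM in flox normoxia, KO normoxia, flox hypoxia and KO hypoxia. Its log2 fold change was 0.02 ± 0.08 in normoxia and 0.10 ± 0.08 in hypoxia (adjusted p = 0.965 and 0.501).

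Scar and calcium-binding genes all rose in hypoxia (7 of 7, with and without replicate 1), and Anxa2, Lgals1 and Capg also rose in normoxia. Capg encodes a gelsolin-like protein that caps actin filaments. It was at 1.56, 1.40 and 1.23 CPM in flox normoxia, 4.66, 4.29 and 4.31 in KO normoxia, 1.64, 1.56 and 1.89 in flox hypoxia, and 15.8, 8.18, 9.29 and 8.78 in KO hypoxia. KO hypoxia lay above KO normoxia, which lay above both flox groups, also without replicate 1. KO against flox gave a log2 fold change of 1.66 ± 0.22 in normoxia and 2.63 ± 0.21 in hypoxia, the highest value among the members (edgeR adjusted p = 0.000615 and 5.16e-06; 2.37 ± 0.12 in hypoxia without replicate 1).

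Anxa2 encodes annexin A2, which binds membrane phospholipids with calcium and pairs with S100a10. It was at 5.37, 6.38 and 6.96 CPM in flox normoxia and 22.0, 18.4 and 19.0 in KO normoxia. Flox hypoxia libraries held 9.28, 7.05 and 9.25 CPM and KO hypoxia libraries 53.4, 26.1, 29.96 and 32.1. The order of the groups was that of Capg, again without overlap between KO normoxia and KO hypoxia. KO against flox was at a log2 fold change of 1.66 ± 0.21 in normoxia and 2.05 ± 0.20 in hypoxia (edgeR adjusted p = 0.00053 and 2.01e-05; 1.78 ± 0.12 in hypoxia without replicate 1).

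Lgals1 encodes galectin-1, a sugar-binding protein. It was at 5.51, 6.15 and 6.23 CPM in flox normoxia, 11.5, 10.6 and 10.1 in KO normoxia, 5.65, 5.57 and 6.04 in flox hypoxia, and 17.6, 10.5, 13 and 13.4 in KO hypoxia. KO was above flox in each condition, and the KO groups overlapped each other. The KO effect on the log2 scale was 0.85 ± 0.14 in normoxia and 1.24 ± 0.14 in hypoxia (edgeR adjusted p = 0.00384 and 4.16e-05; 1.09 ± 0.10 in hypoxia without replicate 1).

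In hypoxia, Cd44, the hyaluronan receptor, had a log2 fold change of 0.74 ± 0.16 (edgeR adjusted p = 0.00689; 0.67 ± 0.16 without replicate 1), and S100a10, the partner of annexin A2, one of 0.51 ± 0.09 (adjusted p = 0.00183; 0.48 ± 0.10). S100a6, the calcium-binding protein calcyclin, had 0.81 ± 0.19 (adjusted p = 0.0115; 0.59 ± 0.14 without replicate 1), and lost the call without flox hypoxia replicate 1 (adjusted p = 0.0653) or 2 (adjusted p = 0.0517). Fabp7, the fatty acid-binding protein of radial glia and astrocytes, was at 21.7, 22.6 and 23.7 CPM in flox normoxia, 25.8, 23.6 and 27.3 in KO normoxia, 21.6, 20.6 and 16.8 in flox hypoxia, and 27.7, 36.6, 29.2 and 28.8 in KO hypoxia. Its highest library was KO hypoxia replicate 2, and replicate 1 was the lowest of that group. The log2 fold change was 0.64 ± 0.10 in hypoxia (adjusted p = 0.000762; 0.68 ± 0.10 without replicate 1) and 0.17 ± 0.11 in normoxia (adjusted p = 0.531).

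The second question is whether 7 days of hypoxia moved these genes, and whether the KO effect depended on oxygen. In flox brains 0 members were called by edgeR, where 0.0222% of all genes were called higher and 0% lower, and the median log2 fold change was 0.00. At an unadjusted p under 0.05 there were 3 members (6.65% of all genes). DESeq2 called 1 member, Serpina3n, and 68 of the 22507 genes tested. In KO brains 4 members rose with hypoxia (0.622% of all genes were called higher and 0.275% lower): A2m by 1.55 ± 0.19, Capg by 1.25 ± 0.19, Vim by 0.86 ± 0.15 and Anxa2 by 0.84 ± 0.19 on the log2 scale. Their edgeR adjusted p values were 0.00395, 0.0105, 0.0209 and 0.0488, and the median of the 30 tested members was 0.52.

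Without KO hypoxia replicate 1, 5 members rose with hypoxia in KO (0.387% of all genes), the same 4 at 1.30, 0.99, 0.62 and 0.57 and Emp1 at 0.60 ± 0.11 (edgeR adjusted p = 0.026), with a median of 0.34. The count of 4 was 2 without KO normoxia replicate 1, 1 without KO normoxia replicate 2 (0.04% of all genes) or 3, 6 without flox normoxia replicate 3 and 10 without KO hypoxia replicate 2, and DESeq2 called 11. Anxa2 lost its call when any 1 of 10 libraries was left out. Vim lost its call without KO normoxia replicate 1, 2 or 3 (edgeR adjusted p = 0.0769, 0.114 and 0.0946), and Capg without KO normoxia replicate 2 or 3 (0.0766 and 0.0647). With the compared libraries alone Vim and Capg also lost it (0.0943 and 0.055), and limma at either pseudocount did not call Vim. A2m kept its call in each of the 13 fits that left out 1 library.

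The KO effect was larger in hypoxia than in normoxia in 29 of the 30 tested members, Sphk1 being the exception, and in 29 without replicate 1. The median difference was 0.51 (0.33 without replicate 1), against 0.00600 (0.00385) over all genes tested. The share of all genes with a larger effect in hypoxia was not computed. As all members were measured in the same libraries, their number is no test of the difference. The difference itself passed the edgeR test for 0 members (0% of all genes). It had an unadjusted p under 0.05 in 11 members (7.26% of all genes), the smallest adjusted p was 0.563, and DESeq2 called 0 members and 8 genes in all. Without a filter on low counts it passed for 3, Vim, Serpina3n and A2m. The share of all genes that passed in that fit is not given, so the 3 are no result about the members. Fbln5 had the smallest p of the members, with a difference of 0.73 ± 0.20 on the log2 scale. A2m was at 1.02 ± 0.29 and Capg at 0.97 ± 0.30, or 0.77 ± 0.19 and 0.70 ± 0.18 without replicate 1.

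**Figure D4:**
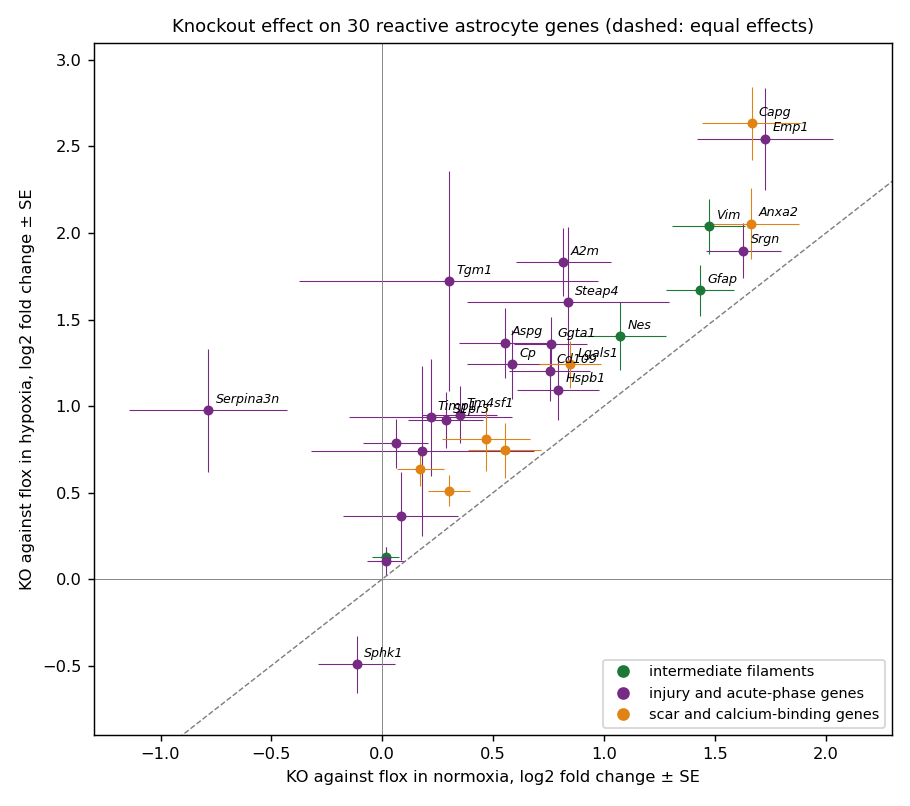
KO against flox in hypoxia (vertical axis) plotted against KO against flox in normoxia (horizontal axis) for the 30 tested genes, as log2 fold changes with standard errors, coloured by subclass; the 2 axes share no library. All points but Sphk1 lie above the dashed line of equal effects, and Serpina3n is the point at -0.78 in normoxia and 0.98 in hypoxia.

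KO hypoxia replicate 1 was the highest of its group for 24 of the 30 tested members and the lowest for 3, Gfap, Amigo2 and Fabp7. Over all genes tested it was the highest in 28.5% and the lowest in 24.7%. In 23 members the KO hypoxia libraries lay above all flox hypoxia libraries (11.5% of all genes), and the count without replicate 1 was also 23 (13.3% of all genes). In normoxia 18 members lay above flox without overlap (10.5% of all genes). The values with and without the library are drawn in the plot of both estimates.

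**Figure D5:**
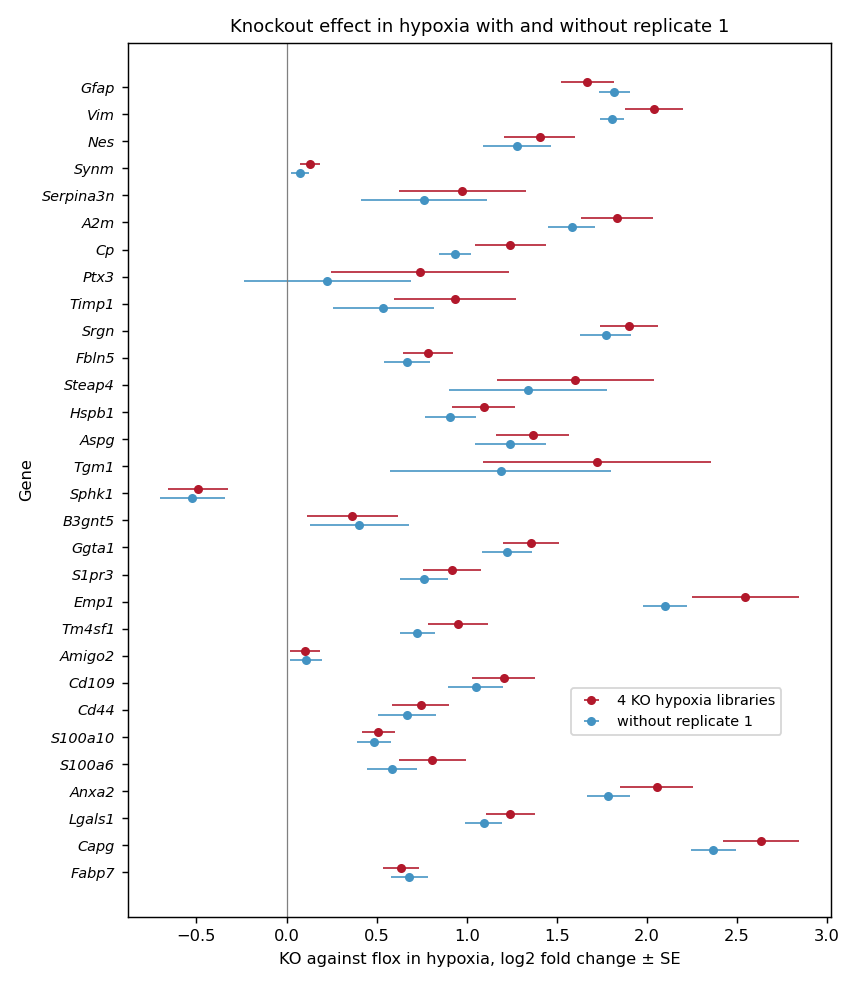
Log2 fold change of KO against flox in hypoxia with its standard error for the 30 tested genes, from all libraries (red) and without KO hypoxia replicate 1 (blue). Most estimates shift left without the library, Gfap moves right from 1.67 to 1.82, and Capg stays the highest at 2.37.

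Of the wider STAT3 cytokine pathway, 3 of 15 tested genes rose in normoxia, and in hypoxia 5 rose and 1 fell (4 and 1 without replicate 1). Osmr, the receptor of oncostatin M, had log2 fold changes of 0.81 ± 0.13 in normoxia and 1.37 ± 0.12 in hypoxia (1.25 without replicate 1), and Lif, a cytokine of this family, of 1.11 ± 0.22 and 1.45 ± 0.21 (1.42). Bcl3, a nuclear cofactor of NF-kappaB, had 1.66 ± 0.38 in hypoxia (edgeR adjusted p = 0.0115; 1.45 without replicate 1). Stat3 itself, named after its values were seen, rose by 0.29 ± 0.06 and 0.46 ± 0.06 on the log2 scale in normoxia and hypoxia (adjusted p = 0.0215 and 0.000123), with 0.43 in hypoxia without replicate 1. Jak1 (-0.03 ± 0.04) and Junb (-0.49 ± 0.26) were not called in hypoxia, and Cntfr, the receptor subunit for ciliary neurotrophic factor and the gene that fell, was at -0.24 ± 0.06 (-0.19 without replicate 1).

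Published panels sort reactive genes into those shared by injuries and those seen after lipopolysaccharide or after ischaemia, and members of the present set belong to them. In hypoxia 11 of 13 pan-reactive genes rose (9 without replicate 1), against 8 of 11 of the lipopolysaccharide panel (6) and 5 of 11 of the ischaemia panel (5). In normoxia the counts were 5, 3 and 2. These counts include the members' own calls given above. Of the panel genes outside the set, 3 of 3 pan-reactive, 5 of 7 lipopolysaccharide and 1 of 3 ischaemia genes rose in hypoxia. Without replicate 1 these were 2, 3 and 1, and in normoxia, with all libraries, 2, 1 and 0. The chemokine Cxcl10 had 2.72 ± 0.44 in hypoxia, the guanylate-binding protein Gbp2 1.31 ± 0.18, the complement inhibitor Serping1 1.41 ± 0.21, the class I histocompatibility gene H2-D1 1.2 ± 0.17, and the lipopolysaccharide co-receptor Cd14 1.17 ± 0.22. Without replicate 1 these were 2.63, 1.27, 1.17, 1.09 and 0.94, and each was still called. Lcn2, lipocalin-2, was at 10.002 CPM in KO hypoxia replicate 1 and 0.129 to 0.464 CPM in the other 12 libraries. Its call in hypoxia (4.26 ± 1.27, edgeR adjusted p = 0.048) was lost without that library (1.24, adjusted p = 0.177). Fkbp5 (0.06 ± 0.13), Iigp1 (0.69 ± 0.34), Ptgs2 (0.07 ± 0.13) and Clcf1 (0.43 ± 0.27) were not called in hypoxia.

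Relatives of the scar and calcium-binding members were counted in the same way. Of 15 tested S100, annexin and galectin genes outside the set, 6 rose in normoxia and 10 in hypoxia (10 without replicate 1), with Lgals3 at 2.35 ± 0.44, Anxa1 at 1.98 ± 0.29 and S100a11 at 1.86 ± 0.24 in hypoxia, and at 1.74, 1.60 and 1.61 without replicate 1, all called, while Anxa6 (0.04 ± 0.04) and Anxa7 (0.07 ± 0.04) were not called. Of 8 other intermediate filaments and linkers 0 rose and 2 fell in hypoxia, the neuronal neurofilaments Nefm (-0.29 ± 0.06, or -0.27 without replicate 1) and Nefl (-0.20 ± 0.05, or -0.16), and Plec and Ina were not called. Among 9 scar proteoglycans and tenascin, 2 rose, Sdc1 (1.10 ± 0.30) and Ptprz1 (0.15 ± 0.04), and 1 fell, Cspg5 (-0.14 ± 0.04), while Ncan (0.02 ± 0.09) and Bcan (-0.05 ± 0.08) were not called. Without replicate 1 the call of Ptprz1 stayed (0.16), and those of Sdc1 (0.70, edgeR adjusted p = 0.0707) and Cspg5 (-0.11, adjusted p = 0.102) were lost.

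Markers of other cells moved in the same contrasts. As markers of the labelled tissue, 6 neuronal genes summed to 5650 to 6338 CPM and 6 oligodendrocyte genes to 3834 to 6121 CPM in every library, and the choroid plexus markers were low in KO normoxia replicate 2 as given above. Homeostatic astrocyte genes, such as water channels and transporters, summed to 7406 to 8125 CPM across all libraries, with 2 of 16 higher and 1 lower in normoxia and 6 higher and 1 lower in hypoxia (medians 0.08 and 0.15; without replicate 1, 7 higher and 1 lower in hypoxia). Of 18 endothelial markers 17 rose in normoxia and 18 in hypoxia (18 without replicate 1), with medians of 1.03 and 1.18. Their sum was 277 to 317 CPM in flox normoxia, 575 to 644 in KO normoxia, 373 to 411 in flox hypoxia and 753 to 1253 in KO hypoxia, where replicate 1 was the highest and the others reached at most 867. The log2 fold change of 7 members in normoxia and 15 in hypoxia exceeded the endothelial median (14 in hypoxia without replicate 1, against a median of 1.00). The share of all genes tested above these medians was not computed. Endothelial markers also lie on both sides of their own median, so the counts do not set the members apart from them.

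Pericyte markers had 7 of 9 higher in normoxia and 8 in hypoxia, and fibroblast markers 1 and 5 of 6. Microglial markers had 0 and 6 of 8 (4 in hypoxia without replicate 1), with sums of 270 to 284 CPM in flox normoxia, 311 to 324 in KO normoxia, 270 to 284 in flox hypoxia and 326 to 412 in KO hypoxia. Border macrophage markers had 1 and 5 of 6 (2 in hypoxia without replicate 1), and erythroid genes 5 and 5 of 5. Neutrophil and monocyte markers had 0 and 3 of the 5 tested, and 1 in hypoxia without replicate 1. Their median log2 fold change in hypoxia was 2.46, and 1.21 without replicate 1. No marker in these lists was at 0 in every library. The part that these cells have in the rise of the reactive astrocyte genes was not tested.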

How the data were processed

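Brain messenger RNA was sequenced in 13 libraries. The authors deposited raw counts for each gene, with RPKM values in another table of identical rows. HISAT2, edgeR and GRCm39 are named per the submitters' processing notes, and for annotation and strand setting the entry is "not given in the sources used here". As deposited, RPKM equal the counts over the library total and 1 length per gene. The library kit is stranded, per the labels' protocols. Groups and replicate numbers come from the sample titles. The labels name no animal, batch or date, so p-values reflect spread among these libraries only.

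Genes with low counts were removed (filterByExpr, minimum count 10), which left 22507 genes and at least 99.95% of each library's counts. No tested member needed KO libraries to pass: each reached 0.183 CPM in at least 3 flox libraries. Libraries were scaled by TMM, and CPM use that scaling. Quasi-likelihood models with a mean for every group used all libraries, in edgeR 4.0.16 in R 4.3.3, and p-values were adjusted over all genes. The fit was also run on counts simulated from its own estimates of spread. That simulation had no library that stands apart, so it does not test the calls made here. Fold changes are log2 with standard errors. A count of 0 allows up to 3 counts (counting error only).

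Members, lists and motifs were chosen with earlier results of these data known. Values per library are given for the filaments and, in each other role, for up to 3 members of at least 1 CPM with the highest absolute fold change in hypoxia; Serpina3n and Fabp7 were added after their values were seen. Members not called, or not tested, are named with group values. Of pathway lists up to 3 called and 2 uncalled genes are named; Stat3 and Cntfr were named after their values were seen. Alternatives were DESeq2 1.42.0, limma 3.58.1 on log2(RPKM + 1) and log2(RPKM + 0.1), other scalings and filters, a term for Xist, a replicate block, the compared groups alone and each library left out.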

Additional observations from a re-analysis of the deposited data

Results flagged for a closer look

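In KO hypoxia, 6 of the 30 tested members had 1 library whose gap to the next exceeded 0.829 of the group's range. That is the limit for 4 libraries, which chance passes in about 1 of 20 groups. The members were measured in the same 4 libraries, and the share over all genes tested was not computed. The count is therefore no result about these members. In 5 of them it was replicate 1 at the top. A2m was at 27.8 CPM there and at 15.3 to 16.6 in the other 3 libraries, Cp at 40.8 against 19.7 to 22.2, and Hspb1 at 13.5 against 8.29 to 9.04. Emp1 was at 19.1 CPM against 6.79 to 8.80, and Capg at 15.8 against 8.18 to 9.29. All 5 remained called for KO against flox in hypoxia without that library. For Fabp7 the library was replicate 2, at 36.6 CPM against 27.7 to 29.2.

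Fabp7 libraries also lay in opposite orders with hypoxia, without overlap, as did those of 158 of the 22507 genes tested (0.702%), counting such opposite orders in either pair of contrasts. All flox hypoxia libraries lay below all flox normoxia libraries (log2 fold change -0.21 ± 0.11), and all KO hypoxia libraries lay above all KO normoxia libraries (0.26 ± 0.10). Neither contrast was called (edgeR adjusted p = 0.802 and 0.234). The difference between the effects was 0.47 ± 0.15 on the log2 scale and did not pass the edgeR test over all genes (adjusted p = 0.607).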

How the results depend on the processing

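The numbers of members called between KO and flox, 11 (normoxia) and 22 (hypoxia), ran from 7 to 15 and from 21 to 26 over 10 other settings and from 7 to 13 and from 20 to 23 on leaving out 1 library, in both directions together. The lower calls were Serpina3n in normoxia (without a filter on low counts or without KO normoxia replicate 3) and in each setting that called 1 member for hypoxia in flox, and Sphk1 in hypoxia without a filter, with DESeq2, with the block and without KO hypoxia replicate 4. The 7 in normoxia came from limma on log2(RPKM + 1) and from leaving out flox normoxia replicate 1 or 2. For hypoxia in flox, 0 became 1 without a filter on low counts, with DESeq2, with the compared libraries alone and without KO normoxia replicate 3 (range 0 to 1). For hypoxia in KO, 4 became 13 without a filter, 11 with DESeq2, 2 with limma at either pseudocount and 1 with the compared libraries alone, and ran from 1 to 10 on leaving out 1 library. The difference of KO effects went from 0 to 3 members without a filter and ran from 0 to 1 with a library left out, 1 being Serpina3n without KO normoxia replicate 3. No member called in a contrast changed sign under these alternatives. With a term for Xist, counts were 11, 22, 0, 5 and 0. In every contrast DESeq2 also called more of all genes tested than edgeR did. For most settings in this section the share of all genes called is not given. The shifts therefore cannot be read as particular to the members, and their cause was not tested. Slc10a6, Ptx3, Tgm1 and Steap4 averaged under 1 CPM in every group, so their values rest on few reads.

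The replicate numbers did not pair the libraries (correlation of same-numbered deviations -0.0177 to 0.0881). With the replicate number as a block, counts were 12 in normoxia, 22 in hypoxia (21 higher and 1 lower; Steap4 was lost at adjusted p = 0.0746 and Sphk1 gained at -0.67, adjusted p = 0.0103), 0 for hypoxia in flox, 5 for hypoxia in KO and 0 for the difference.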
